A study of Mus musculus with 16 samples.

Results

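Oxysterols are cholesterol molecules that carry an added hydroxyl group. Ch25h encodes cholesterol 25-hydroxylase, an enzyme of the endoplasmic reticulum that makes 25-hydroxycholesterol and is induced by interferon in macrophages. Cyp46a1 makes 24S-hydroxycholesterol, the form in which neurons export cholesterol from the brain, and Cyp27a1, a mitochondrial enzyme, makes 27-hydroxycholesterol. Cyp7b1 and Cyp39a1 add a further hydroxyl group at the 7-position of oxysterols, and Hsd3b7 then oxidises the 3-position. Cyp7b1 acting on 25-hydroxycholesterol gives 7α,25-dihydroxycholesterol, the ligand of the chemotactic receptor Gpr183 (EBI2), and Hsd3b7 inactivates that ligand.

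The 7 genes were taken by symbol from the 32285 genes of the files, in which each symbol occurs once. They were followed in 16 libraries of nuclei from the hippocampus of female mice aged 9 months. The labels give each library as Ch25h+/+ or Ch25h-/- and as Tau+ or Tau-, with 4 libraries in each of the 4 groups. The labels give neither the tau line and its promoter nor the part of Ch25h that was deleted, and do not say that the libraries of a group came from separate mice, so p-values measure the spread between these libraries. RNA of nuclei was measured, so every level below is one of nuclear transcripts.

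Each library held 51270831 to 84870650 UMIs (unique molecular identifiers, counts of captured RNA molecules). Of 147873 barcodes with at least 500 UMIs, at least 300 genes and at most 5% mitochondrial UMIs, 11045 were removed as likely doublets, which left 136828 nuclei, 7601 to 10567 per library, with a median of 3570.5 to 6176 UMIs. Libraries shared 6 to 34 barcodes in pairs. Clusters were named from cell type markers, and 116116 nuclei received a class name; the remaining 11.1 to 19.5% of a library stayed unnamed and entered only the sums over all nuclei. Markers of tissue next to the hippocampus were present: choroid plexus nuclei were between 0.0128 and 3.29% of a library, and fibroblast nuclei between 0.370 and 4.45%. The first principal component of the sums, with 25.7% of the variance within groups, put replicates 1 and 2 of every group (numbers that follow the order of deposit and pair no libraries) on one side and 3 and 4 on the other, so that side and group are balanced. The labels do not say what this division is.

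Over all nuclei the targeted gene was not detectably lower in the libraries labelled Ch25h-/-. The Ch25h+/+ groups gave 41 Ch25h UMIs (Tau-) and 95 (Tau+), and the groups labelled Ch25h-/- gave 74 (Tau-) and 94 (Tau+). The fitted change between libraries labelled Ch25h-/- and Ch25h+/+ was a log2 fold change of 0.31 (SE 0.22, 95% interval -0.16 to 0.79), with an adjusted p of 1 by edgeR's quasi-likelihood test with Benjamini-Hochberg adjustment over all genes. Reads at the 3′ end check a deletion only where they fall in the deleted part, so this count does not show whether the enzyme was lost. The groups are therefore called by their labels: Ch25h+/+ libraries are written as wild-type and libraries labelled Ch25h-/- as null-labelled.

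Ch25h lies on the minus strand of chromosome 19 (34473778 to 34475164, GRCm38). The RNA gene Gm26902, annotated as starting from the same promoter in the other direction, lies on the plus strand (34474808 to 34481546), so the gene bodies overlap at their 5′ ends. The chemistry marks strand, but whether the counting used it is not given in the sources used here. RefSeq's table for GRCm38.p6 holds promoters of 5 of the 7 genes. Gene positions given here are those of GENCODE, whereas the windows are placed by RefSeq's starts, which can differ, so that the Ch25h window overlaps the GENCODE gene body and the Cyp46a1 window ends short of it. Of the 5, 3 are printed here as the 250 bases before the RefSeq start. Ch25h was chosen because Gm26902 shares its promoter region. Gpr183 and Cyp46a1 were chosen for the narrowest and the broadest distribution of measured levels among cell classes, with free RNA not subtracted. The windows run 5′ to 3′ along the gene's own strand, at chr19:34475149-34475398 (minus), chr14:121965194-121965443 (minus) and chr12:108334066-108334315 (plus). Capitals mark exact matches on either strand to the cyclic AMP response element TGACGTCA or to the GC box GGGCGG; the PU.1 core GAGGAA and the interferon-stimulated response element (ISRE) were also searched, and no 2 matches overlapped.
Ch25h: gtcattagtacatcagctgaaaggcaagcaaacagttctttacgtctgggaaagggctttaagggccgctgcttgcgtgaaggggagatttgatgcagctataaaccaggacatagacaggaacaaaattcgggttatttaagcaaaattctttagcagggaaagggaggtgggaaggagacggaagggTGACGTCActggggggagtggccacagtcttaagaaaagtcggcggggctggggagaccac
Gpr183: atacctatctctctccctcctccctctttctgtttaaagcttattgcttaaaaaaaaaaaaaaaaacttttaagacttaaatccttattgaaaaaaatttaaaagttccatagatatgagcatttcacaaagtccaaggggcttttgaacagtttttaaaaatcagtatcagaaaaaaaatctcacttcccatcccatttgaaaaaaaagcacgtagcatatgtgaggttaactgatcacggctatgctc
Cyp46a1: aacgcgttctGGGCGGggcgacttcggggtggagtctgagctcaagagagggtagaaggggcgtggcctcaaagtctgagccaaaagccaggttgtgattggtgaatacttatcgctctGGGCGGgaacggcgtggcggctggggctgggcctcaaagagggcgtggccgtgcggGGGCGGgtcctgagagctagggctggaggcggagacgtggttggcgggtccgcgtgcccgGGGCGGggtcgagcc

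The Cyp46a1 window held 4 GC boxes, 23 CG dinucleotides and 67.6% G and C. The Gpr183 window held no match to the 4 motifs, 2 CG dinucleotides and 32.0% G and C. The Ch25h window held 1 cyclic AMP response element, starting 61 bases before the RefSeq start, with 50.4% G and C. Over the 32851 windows of the same length in the table, the median was 52.4% G and C and 6 CG dinucleotides; 1.55% held the cyclic AMP response element, 32.7% the GC box, 23.3% the PU.1 core and 2.98% the interferon element. The windows of Cyp27a1 and Hsd3b7 each held 1 GC box. A match describes the letters and shows no binding. Cyp7b1 and Cyp39a1 were not among the table's entries.

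Levels were computed as UMIs per 1000000 UMIs of a class (CPM), with a mean over libraries where a class had at least 20 nuclei in each; for rarer classes the UMIs of all libraries were pooled, with exact Poisson intervals that cover counting error only. As a measure of free RNA in the droplets, the profile of barcodes under 100 UMIs was taken and scaled to each class by the level of other classes' markers in it.

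**Figure D1:**
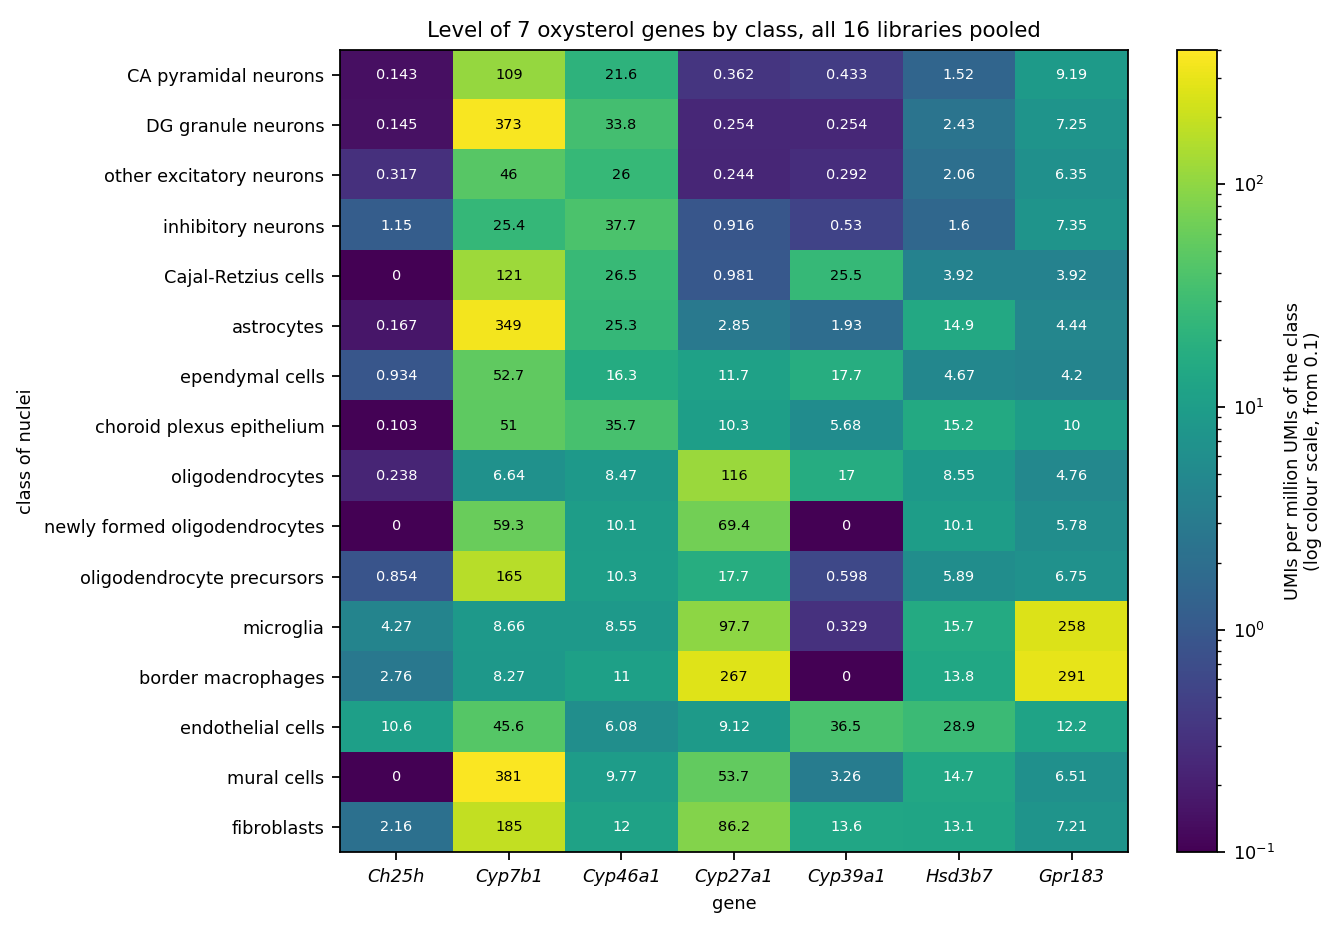
Level of each of the 7 genes (columns) in 16 classes of nuclei (rows), as UMIs per 1000000 UMIs of the class over all 16 libraries pooled, on a log colour scale with the value printed in each cell. Gpr183 stands at 258 in microglia and 291 in border macrophages against 12.2 or less in every other class shown, whereas Cyp46a1 varies between 6.08 and 37.7. Free RNA is not subtracted, and by the estimates in the text it makes up most of the Cyp46a1 level in oligodendrocytes, their precursors, microglia and fibroblasts.

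Ch25h was rare everywhere, with 304 UMIs in the 136828 nuclei. By pooled level it was highest in endothelial nuclei, at 10.6 CPM (4.28 to 21.9) from 7 UMIs, followed by microglia at 4.27 (3.04 to 5.84) from 39 UMIs. These pooled levels join unlike groups: the endothelial UMIs were 3 in each wild-type group, 1 in null-labelled Tau- and 0 in null-labelled Tau+, and the microglial ones were all in Tau+ libraries. Inhibitory neurons held the most UMIs, 95 (31.2% of all), at 1.15 CPM (0.926 to 1.40). Within them, 37 UMIs came from the cluster named for Sst and 39 from that named for Pvalb, at 1.80 CPM (1.26 to 2.48) and 1.82 CPM (1.30 to 2.49), and UMIs were found in 13 and 14 of the 16 libraries. At the estimated free RNA content, the surrounding RNA would give 3.27% of the microglial level and 5.75% of the inhibitory one, against 43.2% in CA pyramidal neurons and 67.2% in dentate gyrus (DG) granule neurons. Neighbours in the order of the 9 classes with enough nuclei did not differ beyond the spread of their paired differences over libraries.

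Cyp7b1, the 7-hydroxylase, was highest among the 9 larger classes in DG granule neurons at 377 ± 33.4 CPM (SD, n = 16 libraries) and astrocytes at 351 ± 48.7 CPM. The granule neurons stood above the astrocytes in 10 of 16 libraries, within the spread of the difference. Pooled mural nuclei, of which there were 523, had 381 CPM (334 to 433). The level was 172 ± 46.5 CPM in fibroblasts, 163 ± 19.7 in oligodendrocyte precursors, 109 ± 10.4 in CA pyramidal neurons, 46.4 ± 6.06 in other excitatory neurons and 25.1 ± 5.83 in inhibitory neurons. CA pyramidal neurons were above other excitatory neurons in 16 of 16 libraries, and these above inhibitory neurons in 16 of 16. In microglia (7.76 ± 4.53 CPM) and oligodendrocytes (6.77 ± 2.22 CPM) the estimated free RNA came to 108 and 118% of the level, so Cyp7b1 was at background in both. Thus the principal excitatory neurons of the hippocampus differed among themselves, with granule neurons above CA neurons in every library (lowest granule value 314 CPM, highest CA value 130 CPM).

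Cyp46a1, the neuronal 24-hydroxylase, had its highest mean level in inhibitory neurons at 37.6 ± 3.81 CPM, followed by DG granule neurons at 33.8 ± 3.92 CPM. Inhibitory neurons were higher in 14 of 16 libraries, beyond the spread of the difference. Other excitatory neurons had 25.9 ± 2.43 CPM, astrocytes 25.5 ± 5.20 and CA pyramidal neurons 21.6 ± 2.63. Estimated free RNA came to 11.6% of the level in inhibitory neurons, 19.1% in DG granule neurons, 20.3% in other excitatory neurons, 26.9% in astrocytes and 18.9% in CA pyramidal neurons. Oligodendrocyte precursors, fibroblasts, oligodendrocytes and microglia had 8.17 to 10.4 CPM, and estimated free RNA came to 158, 64.6, 91.6 and 108% of these levels. The free RNA itself held 90.0 CPM of Cyp46a1, more than any class of nuclei. Among clusters of at least 200 nuclei, Pvalb interneurons had 45.4 CPM (42.6 to 48.4) and the 6 clusters with the highest levels, 46.6 to 55.3 CPM, had no class name.

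Cyp27a1, the sterol 27-hydroxylase, had its highest pooled level in border macrophages and, among the 9 larger classes, its highest means in oligodendrocytes, microglia and fibroblasts. Oligodendrocytes had 114 ± 18.2 CPM, microglia 93.6 ± 19.8 and fibroblasts 81.3 ± 19.7, neighbours that overlapped within the spread of their differences. The fibroblast mean joined unlike clusters. Pooled, the cluster led by Slc6a13 (2175 nuclei) had 115 CPM (105 to 125) and that led by Slc47a1 (932 nuclei) 34.1 CPM (26.9 to 42.5). The 526 border macrophages had 267 CPM pooled (231 to 308), and mural nuclei 53.7 CPM pooled. The border macrophages differed widely between libraries: 191 to 435 CPM in wild-type Tau+ (83 UMIs), 98.0 to 419 in wild-type Tau- (33 UMIs), 56.6 to 194 in null-labelled Tau+ (23 UMIs) and 0 to 362 in null-labelled Tau- (55 UMIs). In null-labelled Tau+ their mean of 122 ± 73.0 CPM (SD, n = 4) was level with that of oligodendrocytes in the same group, 126 ± 14.4 CPM, so the higher pooled level does not hold in each group. The class had under 20 nuclei in some libraries and was not tested. Oligodendrocyte precursors had 17.5 ± 6.40 CPM, below fibroblasts in 16 of 16 libraries. Inhibitory, CA pyramidal, DG granule and other excitatory neurons had means of 0.250 to 0.884 CPM, and free RNA would give 45.7, 108, 244 and 208% of those levels. Of all Cyp27a1 UMIs, 63.8% came from oligodendrocytes and 12.99% from microglia.

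Cyp39a1, which acts on 24S-hydroxycholesterol, was also led by oligodendrocytes among the larger classes, at 17.3 ± 2.60 CPM, with 49.7% of its 1293 UMIs. Fibroblasts had 11.6 ± 7.61 CPM and astrocytes 1.999 ± 0.941. Oligodendrocytes stood above fibroblasts in 10 of 16 libraries, within the spread of the difference. The rarer endothelial nuclei had 36.5 CPM (23.4 to 54.3) from 24 UMIs, Cajal-Retzius nuclei 25.5 (16.7 to 37.4) from 26 UMIs and ependymal nuclei 17.7 (12.6 to 24.3) from 38 UMIs. Oligodendrocyte precursors had 7 UMIs in all, and newly formed oligodendrocytes none.

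Hsd3b7, which ends the synthesis and removes the Gpr183 ligand, had a broad and low level. Microglia had 15.1 ± 5.23 CPM, astrocytes 14.9 ± 2.88, fibroblasts 12.4 ± 7.92 and oligodendrocytes 8.02 ± 2.71, an order in which no neighbours differed beyond their spread. Neuronal classes had means of 1.505 to 2.43 CPM. Barcodes outside the nuclei had group means of 5.06 to 6.29 CPM, above these neuronal levels. Whether the neuronal levels exceed free RNA was not tested. Endothelial nuclei had 28.9 CPM (17.4 to 45.1) from 19 UMIs.

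Gpr183, the receptor, was high in macrophages of the brain and nowhere else among the named classes. Microglia had 254 ± 38.2 CPM, lowest 189 and highest 333, above every other tested class in 16 of 16 libraries, and border macrophages had 291 CPM pooled (253 to 333). The other 8 tested classes lay between 4.47 ± 1.24 CPM in astrocytes and 9.15 ± 1.20 in CA pyramidal neurons, and free RNA would give 3.97 to 21.6% of their levels. Microglia gave 2356 of the 8414 Gpr183 UMIs (28.0%), and CA pyramidal neurons, at their lower level, gave 1803 (21.4%).

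Over the 144 sums of 9 classes and 16 libraries, the genes most like each member by Pearson's r of log2(CPM + 1) were found, as a description of points that share libraries and classes. Gpr183 was most like Pik3cg (0.94), Gm34589 (0.94) and Hk3 (0.94). Cyp27a1 was most like Pla2g4a (0.96), Itch (0.94) and Pld1 (0.94), and Cyp39a1 like Aspa (0.88), Dock5 (0.86) and Gm12828 (0.86). Cyp7b1 was most like Mcu (0.91), Tnfrsf19 (0.89) and Tead1 (0.89), Cyp46a1 like Gm5577 (0.85), Snph (0.83) and Atp2b2 (0.82), and Hsd3b7 like Kmt2c (0.87), Cyp4f13 (0.86) and Nmi (0.86). Ch25h had the weakest likeness, with Gas2l3 (0.58), Fam20c (0.55) and Itgax (0.53).

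Ch25h was detected in microglia of Tau+ libraries and not in those of Tau- libraries. The 4 wild-type Tau+ libraries had 19, 5, 1 and 7 UMIs, or 19.8, 6.08, 2.74 and 8.33 CPM. The 4 null-labelled Tau+ libraries had 4, 1, 1 and 1 UMIs, or 4.94, 0.983, 1.62 and 1.62 CPM. All 8 Tau- libraries had 0 UMIs, so the groups did not overlap. Each Tau+ library thus had at least 1 UMI, in 31 of 3450 microglial nuclei, with at most 3 UMIs in a nucleus.

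The difference between Tau+ and Tau- microglia over both genotypes was 5.76 CPM (exact permutation test within genotype, two-sided p = 0.000408, the smallest it can give). Against 3 counts, the upper limit of a count of 0 over the 8 Tau- libraries, the pooled Tau+ microglial level was 6.60-fold higher. That ratio leaves out counting error in the Tau+ counts and the spread between libraries, so it is not a lower limit. With wild-type alone the difference was 9.23 CPM (exact permutation p = 0.0286, the smallest that 4 against 4 allows) and the same ratio was 5.004-fold. Replicate 1 of wild-type Tau+ held 19 of the 32 wild-type UMIs. Without it the wild-type difference was 5.71 CPM and the ratio 2.996-fold, and over both genotypes the ratio was 4.03-fold. Without any one wild-type Tau- library the wild-type p was 0.0571 by the exact permutation test. The Tau+ libraries also held more microglial RNA, 2988855 and 3061874 UMIs in the wild-type and null-labelled groups against 1402057 and 1671285 in the Tau- groups. Microglial nuclei were 5.01 ± 1.43% and 5.29 ± 0.974% of nuclei in the Tau+ groups and 3.20 ± 0.755% and 3.48 ± 1.05% in the Tau- groups (SD, n = 4). With no filter on low counts, edgeR's adjusted p for tau over both genotypes was 0.00118.

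Within the Tau+ groups, microglial Ch25h was lower in the null-labelled libraries, 2.29 ± 1.79 against 9.23 ± 7.39 CPM (SD, n = 4), but the values overlapped and the exact permutation p was 0.0571. The ratio of the pooled levels was 0.213, with a counting interval of 0.0795 to 0.492. One library carried much of it: without replicate 1 of wild-type Tau+ the difference of -6.94 CPM became -3.43 CPM (exact p = 0.143), and without replicate 3 of the same group it became -9.10 CPM (exact p = 0.0286).

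**Figure D2:**
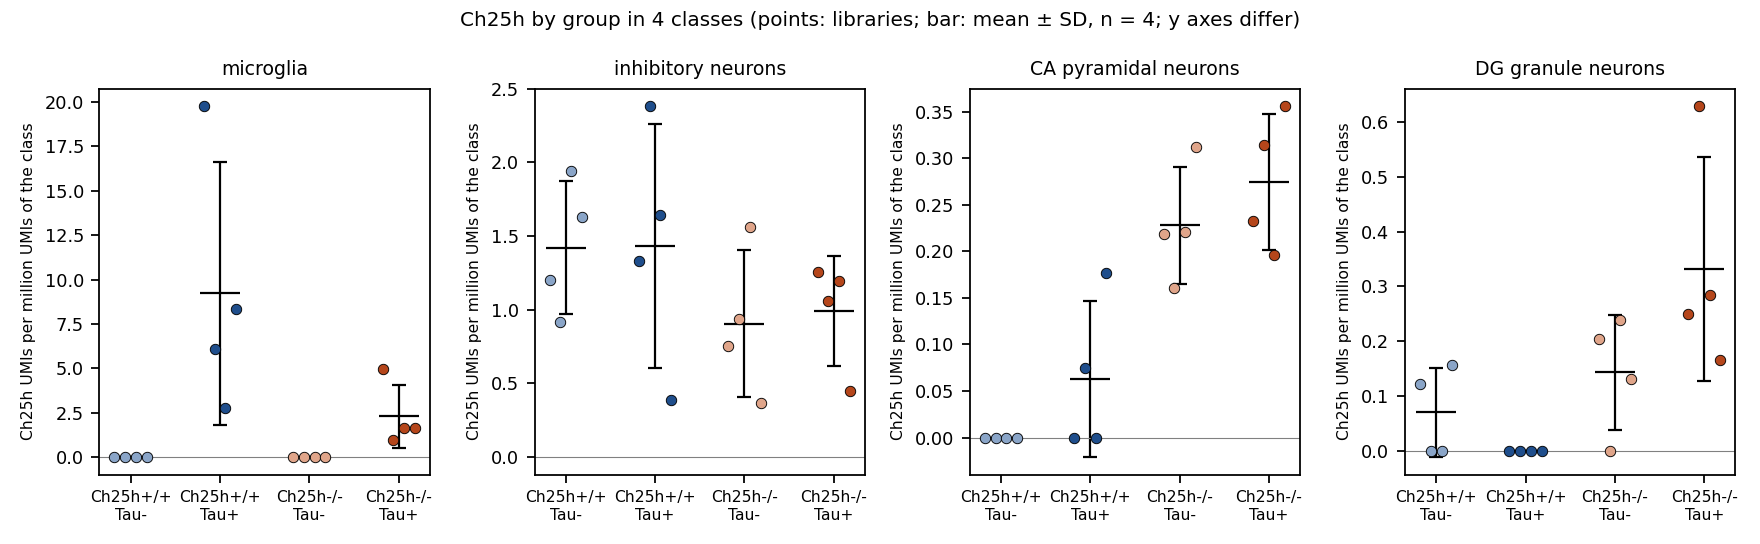
Ch25h level in each library (points; y axis: UMIs per 1000000 UMIs of the class) by group (x axis), with mean and SD of 4 libraries, in 4 classes with separate y axes. Microglia of all 8 Tau- libraries lie at 0, whereas CA pyramidal and DG granule neurons are higher in the null-labelled libraries, by 0.220 and 0.203 CPM on average.

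In excitatory neurons the order of genotypes was the opposite. CA pyramidal neurons held 0 Ch25h UMIs in every wild-type Tau- library and 0, 1, 0 and 2 in the wild-type Tau+ libraries. They held 3, 2, 2 and 4 UMIs in null-labelled Tau- and 3, 4, 3 and 4 in null-labelled Tau+, with no overlap between genotypes within either tau state. Over both tau states the sums were 25 against 3 UMIs, a ratio of 7.97 (counting interval 2.43 to 41.3), and the exact permutation p was 0.000408.

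DG granule neurons gave 18 against 2 UMIs (ratio 6.99, counting interval 1.67 to 62.1; exact permutation p = 0.00449). Other excitatory neurons gave 21 against 5 (ratio 3.98, interval 1.46 to 13.5; exact permutation p = 0.00122). Oligodendrocyte precursors gave 9 against 1 (ratio 8.60, interval 1.19 to 377; exact permutation p = 0.00204). These sums rest on few molecules, and all 4 classes lie at 1.57 CPM or less in either genotype. In the barcodes outside the nuclei, Ch25h was 0.895 CPM in the null-labelled libraries and 1.39 CPM in wild-type, with overlap between libraries. That set is wider than the barcodes under 100 UMIs and is not the free RNA measure used above. The source of the UMIs in these 4 classes was not tested.

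Inhibitory neurons, the class with the most Ch25h UMIs, had 41 UMIs in the null-labelled libraries and 54 in wild-type, a ratio of 0.727 (counting interval 0.472 to 1.11; exact permutation p = 0.1004). When 1 library was left out, the exact permutation p ran from 0.0151 to 0.217 and the difference from -0.654 to -0.321 CPM. The p was 0.0151 without wild-type Tau+ replicate 4 and 0.0474 without null-labelled Tau- replicate 3. In the Sst cluster the wild-type groups gave 9 and 11 UMIs in Tau- and Tau+ and the null-labelled libraries gave 9 and 8. The Pvalb cluster gave 11 and 14 against 4 and 10. In all, 140 exact permutation tests were made of members with too few counts for the fit, in 6 effects that share libraries. Of these, 15 had an exact permutation p under 0.05, 10 of them of Ch25h. Effects over both states reuse the libraries of their parts, so the 10 are not separate results. No share of other low-count genes with such a p is given beside this count. Tests of Gm26902 are outside the 140.

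The RNA gene across the promoter, Gm26902, was lower in the null-labelled libraries over all nuclei and in inhibitory neurons, but not in every class. Over all nuclei it had 0.644 ± 0.0732 CPM in wild-type Tau- and 0.778 ± 0.179 in wild-type Tau+, against 0.209 ± 0.0277 and 0.324 ± 0.0560 in null-labelled Tau- and Tau+ (SD, n = 4). The log2 fold change over both tau states was -1.42 (SE 0.15, edgeR adjusted p = 0.000534), in a comparison in which 0.0281% of 21386 genes were called. In inhibitory neurons, which held 43.3% of its UMIs, the 8 wild-type libraries had 2.31 to 4.87 CPM and the 8 null-labelled had 0.174 to 1.12 CPM, with no overlap. The log2 fold change there was -2.74 (SE 0.27, edgeR adjusted p = 0.000154), where 0.00679% of 14723 genes were called, that is Gm26902 alone. In the Pvalb cluster it gave 46 and 47 UMIs in the wild-type groups and 0 and 4 in the null-labelled, in the order Tau-, Tau+. The Sst cluster gave 16 and 20 against 2 and 3, whereas the Vip cluster, with 7 UMIs in all, gave 1 and 1 against 0 and 5. Other excitatory neurons had 13 UMIs in the null-labelled libraries and 29 in wild-type (ratio 0.425, counting interval 0.203 to 0.843; exact permutation p = 0.0049). In oligodendrocytes the direction was the opposite, with 14 UMIs in the null-labelled libraries and 2 in wild-type (ratio 7.42, counting interval 1.70 to 67.3; exact permutation p = 0.0102). There the null-labelled Tau+ libraries had 3, 2, 2 and 4 UMIs and the wild-type Tau+ libraries 0, 0, 0 and 1, with no overlap. CA pyramidal neurons gave 13 against 9 UMIs (exact permutation p = 0.590) and DG granule neurons 17 against 6 (exact permutation p = 0.106). The direction of the genotype difference in Gm26902 thus varied between classes. Reads of the overlapping stretch could count for either gene where strand was not used.

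Among the other members, Cyp27a1 and Cyp39a1 were called higher with tau over all nuclei, and no member passed the test within any single class. The Cyp39a1 call was lost in 13 of 16 fits that left out 1 library, and its log2 ratio was 0.03 when all class weights were held equal. Of the 70 combinations of a member with a class or with all nuclei, 40 had enough counts to be fitted by edgeR. For tau over both genotypes 2 of the 40 were called, both over all nuclei and both higher, where 4.39% of 21386 genes were called. For tau in the null-labelled libraries 1 was called (all nuclei, background 0.528%), and for tau in wild-type 0 (background 0.0795%). For null-labelled against wild-type libraries, over both tau states, in Tau- or in Tau+, and for the interaction, 0 of 40 were called, and DESeq2 called none either. At an unadjusted p under 0.05 there were 2, 4, 2 and 2 of 40 in these contrasts, where 2.85, 3.61, 3.65 and 4.41% of all fitted combinations of a gene with a class or with all nuclei had such a p. For tau there were 4 in wild-type libraries (8.06% of all combinations), 7 in null-labelled libraries (8.49%) and 6 over both genotypes (11.3%). For tau over both genotypes the share of all genes called was 8.75% in microglia, 3.36% in astrocytes, 0.335% in oligodendrocytes, 0.234% in their precursors, 0.0729% in DG granule, 0.0492% in CA pyramidal, 0.0276% in other excitatory and 0.0272% in inhibitory neurons, and 0 in fibroblasts. The single-class counts of members thus stand beside a background that is high in microglia and astrocytes and near 0 in neurons.

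The same shares for tau in wild-type libraries were 2.29% in microglia, 0.655% in astrocytes, 0.0251% in oligodendrocytes, 0.0106% in their precursors, 0.0265% in DG granule, 0.0184% in CA pyramidal, 0.0207% in other excitatory and 0.0204% in inhibitory neurons. For tau in null-labelled libraries they were 1.53, 0.0468, 0.00836, 0.0956, 0.0795, 0.0676, 0.0207 and 0.0272% in the same order of classes. Between genotypes few genes were called. Over both tau states the shares were 0.0281% over all nuclei, 0.0117% in microglia, 0.0106% in oligodendrocyte precursors, 0.00663% in DG granule, 0.0246% in CA pyramidal, 0.0276% in other excitatory and 0.00679% in inhibitory neurons. In Tau- they were 0.00468% over all nuclei, 0.00663, 0.00615 and 0.00679% in DG granule, CA pyramidal and inhibitory neurons, and in Tau+ 0.0187% over all nuclei, 0.0106% in oligodendrocyte precursors, 0.00663% in DG granule and 0.0184% in CA pyramidal neurons. All other classes had 0, as had the interaction in every class.

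Cyp27a1 over all nuclei had 7.59, 6.84, 7.49 and 5.57 CPM in wild-type Tau- and 11.9, 11.3, 11.2 and 10.2 CPM in wild-type Tau+. It had 6.94, 5.13, 3.99 and 5.82 CPM in null-labelled Tau- and 8.86, 12.5, 11.3 and 10.1 in null-labelled Tau+. Every Tau+ library was above every Tau- library. The log2 fold change over both genotypes was 0.78 (SE 0.11, edgeR adjusted p = 0.00309), with 0.95 (SE 0.16, adjusted p = 0.0223) in the null-labelled and 0.61 (SE 0.16, adjusted p = 0.116) in wild-type libraries. Without any one of replicates 2, 3 and 4 of null-labelled Tau+ or of null-labelled Tau- the effect in null-labelled libraries was no longer called (adjusted p up to 0.0797). The difference between the genotypes' effects was not called (all interaction tests of members had adjusted p of at least 0.846).

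Shares of several classes with high Cyp27a1 levels differed between the groups. Oligodendrocytes were 15.5 ± 2.74% of nuclei in wild-type Tau- and 18.4 ± 2.62% in wild-type Tau+, with overlap. They were 10.9 ± 5.16% in null-labelled Tau- and 21.5 ± 2.79% in null-labelled Tau+ (SD, n = 4). Microglial means were 3.20 and 5.01% in wild-type Tau- and Tau+ and 3.48 and 5.29% in null-labelled Tau- and Tau+. Those of fibroblasts were 1.35 and 3.08% in wild-type and 3.18 and 1.715% in null-labelled libraries, in the same order. In a sum over all nuclei, more nuclei of a type and more RNA per nucleus cannot be told apart. When every class was given its mean weight over the 16 libraries, so that only levels within classes differed, the Tau+ and Tau- means were 8.93 ± 1.05 and 7.78 ± 0.927 CPM (SD, n = 8). That is a log2 ratio of 0.20 (exact permutation p = 0.0335), against 0.82 without equal weights.

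**Figure D3:**
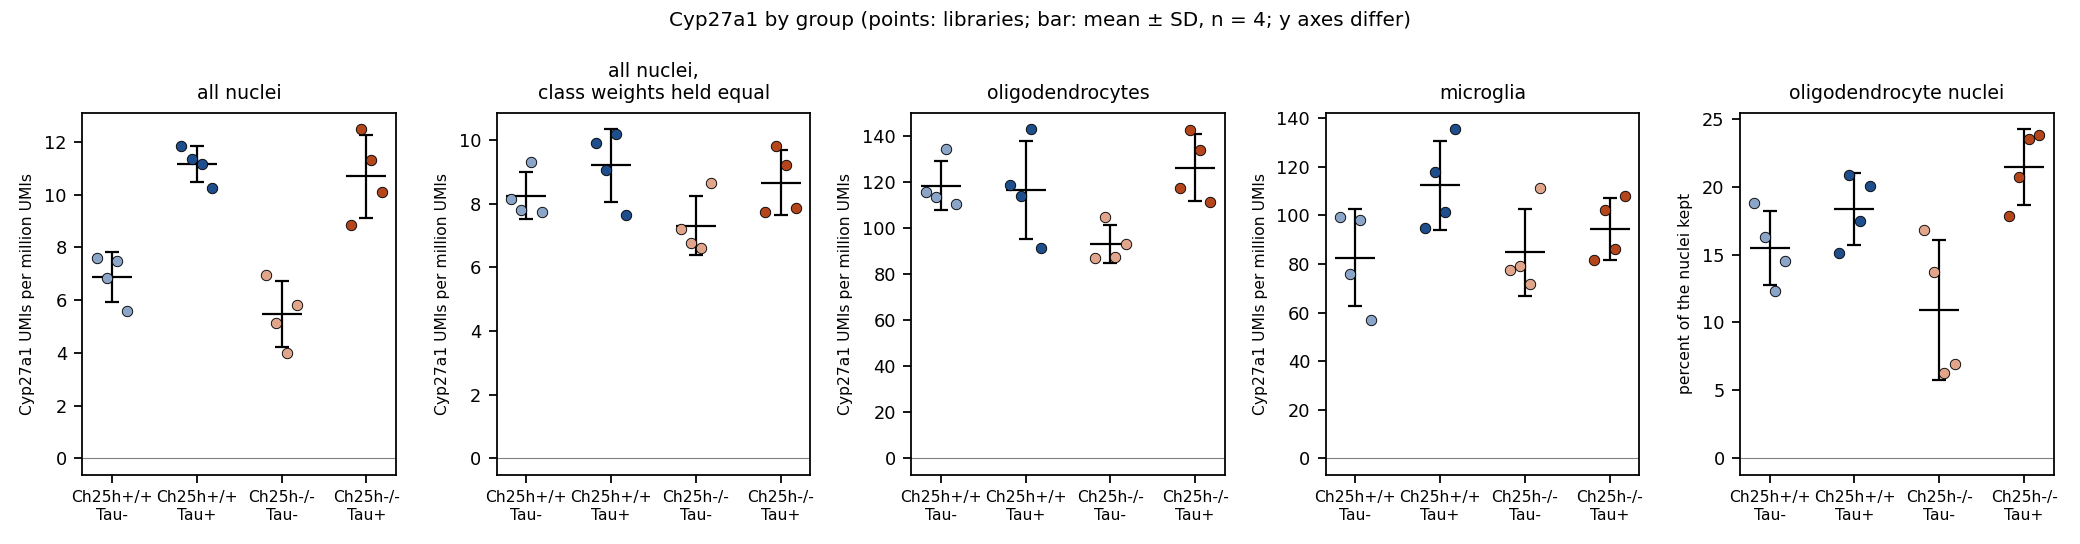
Cyp27a1 level in each library (points; y axis of the first 4 panels: UMIs per 1000000 UMIs) and share of oligodendrocyte nuclei (last panel, percent) by group (x axis), with mean and SD of 4 libraries. Tau+ and Tau- libraries of both genotypes together separate over all nuclei, whereas they overlap with class weights held equal and within oligodendrocytes and microglia.

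Within oligodendrocytes, Cyp27a1 had 118 ± 10.7 CPM in wild-type Tau-, 117 ± 21.3 in wild-type Tau+, 93.1 ± 8.34 in null-labelled Tau- and 126 ± 14.4 in null-labelled Tau+ (SD, n = 4). The tau effect over both genotypes was 0.21 on the log2 scale (95% interval 0.03 to 0.40, edgeR adjusted p = 0.417; 0.335% of 11957 genes called). In the null-labelled libraries it was 0.46 (interval 0.19 to 0.72, adjusted p = 0.339; background 0.00836%), and the 4 Tau+ libraries were above the 4 Tau- libraries, 111 CPM being the lowest and 105 CPM the highest. Within microglia the effect over both genotypes was 0.26 (interval -0.02 to 0.54, adjusted p = 0.272; 8.75% of 8518 genes called).

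Cyp39a1 over all nuclei ranged from 1.17 to 1.84 CPM in Tau- libraries and from 1.65 to 2.10 in Tau+ libraries. The log2 fold change was 0.40 (SE 0.10, edgeR adjusted p = 0.0379), and the adjusted p ran from 0.0152 to 0.0750 in the fits that left out 1 library, with the call lost in all but those without wild-type Tau+ replicate 1, wild-type Tau- replicate 3 or null-labelled Tau- replicate 1. With class weights held equal the Tau+ and Tau- means were 1.61 ± 0.144 and 1.58 ± 0.263 CPM (exact permutation p = 0.764). Within oligodendrocytes the fitted change was -0.02 (interval -0.32 to 0.27), with groups at 16.6 to 17.5 CPM.

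Gpr183 in microglia did not differ detectably among the groups. It had 210, 294, 258 and 212 CPM in wild-type Tau- and 311, 271, 263 and 230 CPM in wild-type Tau+. The null-labelled Tau- libraries had 265, 230, 189 and 263 CPM and null-labelled Tau+ 228, 240, 333 and 266. All 4 groups overlapped. The tau effect was 0.13 on the log2 scale (95% interval -0.10 to 0.35, edgeR adjusted p = 0.572) and that of the genotype label -0.02 (interval -0.24 to 0.20). In inhibitory neurons, at 7.35 ± 1.57 CPM, the tau effect was -0.31 (interval -0.57 to -0.04), with an edgeR adjusted p of 0.513.

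Cyp7b1 showed no called change in its leading classes. In DG granule neurons the group means were 375 ± 35.6, 392 ± 20.4, 358 ± 44.4 and 382 ± 33.5 CPM in the order wild-type Tau-, wild-type Tau+, null-labelled Tau- and null-labelled Tau+ (SD, n = 4). The tau effect was 0.07 (interval -0.08 to 0.22) and the effect of the label -0.04 (interval -0.19 to 0.10) on the log2 scale. In astrocytes the tau effect was 0.14 (interval -0.04 to 0.33, edgeR adjusted p = 0.508; background 3.36%). Cyp46a1 in inhibitory neurons had group means of 37.2 to 38.4 CPM, with a tau effect of -0.03 (interval -0.21 to 0.14), and in DG granule neurons one of 0.12 (interval -0.05 to 0.28).

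In oligodendrocytes the tau effect on Hsd3b7 was 0.56 (interval 0.13 to 0.99, edgeR adjusted p = 0.340), with group means of 7.69 ± 2.34 and 10.2 ± 2.70 CPM in wild-type Tau- and Tau+ and 5.38 ± 1.65 and 8.77 ± 2.17 CPM in null-labelled Tau- and Tau+ (SD, n = 4). In astrocytes it was -0.24 (interval -0.52 to 0.04, adjusted p = 0.429), and in microglia 0.41 (interval -0.20 to 1.02, adjusted p = 0.486).

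**Figure D4:**
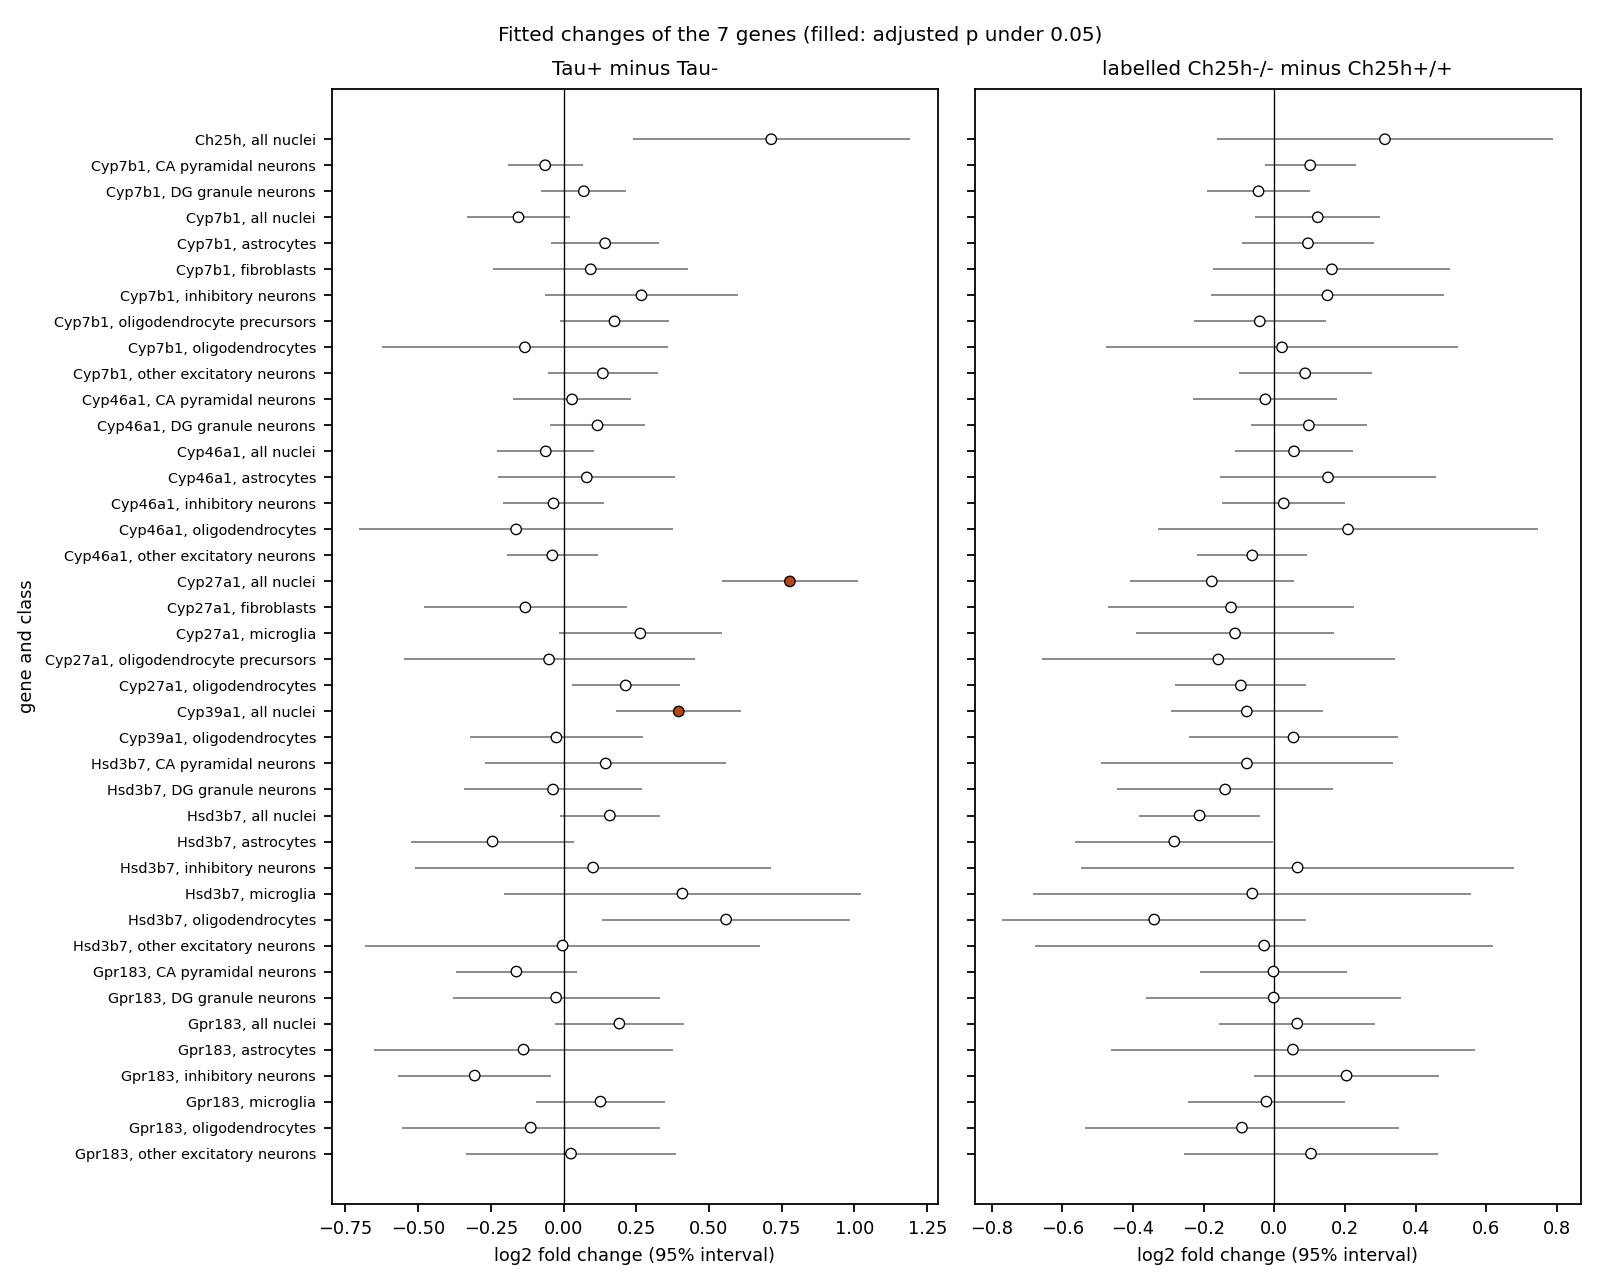
Log2 fold change (points, x axis) and 95% interval (lines) for each of 40 fitted combinations of gene and class (y axis), for Tau+ against Tau- (left) and the null-labelled libraries against wild-type (right). The 2 filled points, Cyp27a1 and Cyp39a1 over all nuclei in the left panel, are those with an adjusted p under 0.05.

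The 3 lists of other genes of the pathway were read beside the members. Of 23 further enzymes that hydroxylate or convert oxysterols, 4 could be tested in microglia, and 1 rose with tau over both genotypes, where 8.75% of all microglial genes were called in either direction. This was Soat1, which esterifies sterols for storage, with a log2 fold change of 0.78 (SE 0.22, edgeR adjusted p = 0.0297); the list's median was 0.09 against -0.00 over all genes. Soat1 had 72.1 ± 30.9 and 134 ± 54.7 CPM in wild-type Tau- and Tau+ and 78.0 ± 28.2 and 125 ± 10.6 CPM in null-labelled Tau- and Tau+ (SD, n = 4), with overlap between the tau states. Its call was lost in 9 of 16 fits without 1 library (adjusted p up to 0.0726): replicates 1 and 4 of both Tau+ groups, 2 and 3 of wild-type Tau- and 1, 2 and 3 of null-labelled Tau-. Over all nuclei 18 of the 23 were tested and 1 rose, against 4.39% of all genes called. This was Cyp3a13, a hydroxylase of the cytochrome P450 family (log2 fold change 0.84, SE 0.19, edgeR adjusted p = 0.0195). The tau states overlapped, with 0.862 CPM as the lowest Tau+ and 0.891 as the highest Tau- value. No level with class weights held equal is given for Cyp3a13, so class shares and RNA per nucleus cannot be told apart. The list's median was -0.05.

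Of 10 genes for electron donors and sterol delivery, 7 were tested in microglia and 1 fell with tau over both genotypes (8.75% of all microglial genes called). Stard3, a sterol-binding protein of late endosomes, had 147 ± 8.56 and 90.8 ± 25.6 CPM in wild-type Tau- and Tau+ and 131 ± 17.2 and 99.1 ± 9.16 CPM in null-labelled Tau- and Tau+. The log2 fold change was -0.60 (SE 0.12, edgeR adjusted p = 0.00284), and the list's median was -0.13. In wild-type alone it was -0.76 (SE 0.18, adjusted p = 0.0250; background 2.29%).

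Of 29 oxysterol receptors and binding proteins, 17 were tested in microglia and 2 rose with tau over both genotypes, a share near the 8.75% of all microglial genes called. These were Osbpl8 and Osbpl3, relatives of the oxysterol-binding protein that work at contacts of the endoplasmic reticulum. Osbpl8 had 182 ± 30.4 and 339 ± 113 CPM in wild-type Tau- and Tau+, and 192 ± 29.9 and 274 ± 69.3 CPM in null-labelled Tau- and Tau+ (log2 fold change 0.69, SE 0.15, edgeR adjusted p = 0.00676). In wild-type alone its change was 0.87 (SE 0.22, adjusted p = 0.0422). Osbpl3 changed by 0.72 in microglia (SE 0.18, adjusted p = 0.0114) and by 1.16 in astrocytes (SE 0.21, adjusted p = 0.00533), where 23 of the 29 were tested and Osbpl3 alone was called, against 3.36% of all astrocyte genes. The list's medians were 0.07 in microglia and -0.02 in astrocytes. Over all nuclei, where 4.39% of all genes were called, 1 of 29 rose, Osbpl7, by 0.24 (SE 0.06, adjusted p = 0.0392), a call lost in 11 of 16 fits without 1 library (adjusted p up to 0.0839). Those fits left out replicates 2, 3 and 4 of either Tau+ group or of wild-type Tau-, or replicates 3 and 4 of null-labelled Tau-. Osbpl7 changed by 0.12 in astrocytes and by 0.16 in microglia, neither called. Its level with class weights held equal is not given. No gene of the 3 lists was called between the null-labelled libraries and wild-type.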

How the data were processed

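The deposited values are counts of UMIs for each gene in each of 33161829 barcodes from 16 libraries made with 10x Genomics 3′ chemistry, per the labels' protocols. Per the file headers, Cell Ranger 4 made them; Cell Ranger 3.1.0 and the build mm10 are named in the submitters' processing notes. The other columns deposited by the authors are names of genes and barcodes. The members, lists and markers were chosen with earlier results of these data known.

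Doublets were scored per library against simulated ones (0.8% removed per 1000 nuclei). Nuclei were clustered (Leiden, resolution 1, 20 neighbours, 50 components of 3000 variable genes, leaving out the members and lists). A cluster was named where at least 3 markers, and 0.333 of a class's markers, were 2-fold or more above other nuclei; 44 of 81 clusters stayed unnamed, as they held over 50% doublets, had too few markers or low depth, or had leading genes that went against the name. UMIs were summed per library and class and tested with edgeR 4.0.16 (TMM, quasi-likelihood, filterByExpr, 1 mean per group, all 16 libraries) over all nuclei and in the 9 classes that no library held fewer than 20 nuclei of, with Benjamini-Hochberg adjustment within a class and contrast, called under 0.05. Members with too few counts for the fit and at least 10 UMIs were tested by exact two-sided permutation. The scripts were tested on simulated data. DESeq2 1.42.0, other scaling, filters, depth, doublets and left-out libraries were tried as alternatives. Named genes were all 7 members, up to 5 called genes per list and contrast, Gm26902, and the 3 genes most like each member among genes averaging 10 or more UMIs a library in its highest class.

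Total counts per library set the precision; intervals and floors cover counting error only. Over the 24 pairs of libraries within groups, chi-square divided by its degrees of freedom ran from 7.34 to 51.9, so none was a copy.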

Additional observations from a re-analysis of the deposited data

Results flagged for a closer look

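In groups of 4 libraries, 5 of 80 tested had 1 library far from the other 3 relative to the group's range (Dixon's test at the 95% level, by which chance flags about 1 in 20 groups). Ch25h in microglia was 4.94 CPM in replicate 1 of the libraries labelled Ch25h-/- Tau+, where the next highest had 1.62. Cyp7b1 in astrocytes was 358 CPM in Ch25h+/+ Tau- replicate 1 against 313 for the next highest. Cyp39a1 in oligodendrocytes was 22.6 CPM in Ch25h+/+ Tau- replicate 3 against 16.3. Hsd3b7 in oligodendrocytes was 12.01 CPM in replicate 1 of the libraries labelled Ch25h-/- Tau+ against 7.90. Gm26902 in inhibitory neurons was 2.85 CPM in Ch25h+/+ Tau- replicate 4, below the next lowest at 4.0.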

How the results depend on the processing

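For tau over both genotypes, the number of members called was 2, and 0 or 1 on either side of the first principal component alone (replicates 1 and 2, then 3 and 4); leaving out 1 library gave 1 to 2. With no filter on low counts it was again 2, with Ch25h in microglia called (adjusted p 0.00118) and Cyp39a1 over all nuclei not (adjusted p 0.0584). For tau in the libraries labelled Ch25h-/-, 1 was called, 0 on either side alone, and 0 to 1 without 1 library. For tau in Ch25h+/+, 0 were called, 1 with DESeq2 (Cyp27a1, all nuclei) and 1 with no filter on low counts (Ch25h, microglia). In Ch25h+/+ the all-nuclei change of Cyp27a1 had an adjusted p of 0.0154 by DESeq2. In that contrast over all nuclei DESeq2 called 514 of 20967 genes, whereas edgeR called 17 of 21386. The shares of all genes called with no filter are not given here. Microglial Ch25h in Tau+, label Ch25h-/- minus Ch25h+/+, ranged from -9.10 to -3.43 CPM without 1 library; the tau difference in microglia was 7.94 and 3.58 CPM on the 2 sides, and in Ch25h+/+ alone it ranged from 5.71 to 11.4 CPM without 1 library. Equal class weights, and the sides for Ch25h's permutation tests, were chosen after seeing the data. With class weights held equal, the tau differences over all nuclei of Cyp39a1, Hsd3b7 and Gpr183 (log2 ratios 0.03, 0.09 and 0.01) no longer had an exact permutation p under 0.05, nor had those in Ch25h+/+ of Ch25h (log2 ratio 1.18 to 0.86, exact permutation p = 0.0571), Cyp27a1 (0.70 to 0.16) and Hsd3b7 (0.32 to 0.14) and that of Cyp27a1 in the libraries labelled Ch25h-/- (0.97 to 0.24). The tau differences of Ch25h and Cyp27a1 over both genotypes kept one (exact permutation p = 0.0306 and 0.0335), as did the lower Hsd3b7 level in libraries labelled Ch25h-/- (log2 ratio -0.18 against -0.24, exact permutation p = 0.0249). Direction turned for the tau difference in libraries labelled Ch25h-/- of Cyp39a1 (0.472 to -0.122 CPM) and Gpr183 (1.37 to -0.209), and between genotypes for Ch25h in Tau+ (-0.0391 to 0.0383) and Cyp39a1 in Tau- (-0.0850 to 0.159) and over both tau states (-0.108 to 0.00215). The cause of these changes was not tested. In inhibitory neurons the Gm26902 call was lost on either side alone (adjusted p 0.0987 and 0.261). No paired analysis was possible because the labels carry no replicate numbers, and those used here only name the libraries in their order of deposit; edgeR fits with a term for the side of the first principal component called as many members as those without it in each contrast.

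Depth limits Ch25h most: 304 UMIs over all nuclei leave counts of 0 to 7 per library in most classes, and a microglial 0 in a Tau- group allows up to 2.14 CPM.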

Other observations

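In fibroblasts the level of Hsd3b7 was 15.4 CPM in Ch25h+/+ Tau+ and 6.87 CPM in Ch25h+/+ Tau-, from 38 and 8 UMIs. The exact permutation p was 0.0286, the smallest that 4 against 4 allows. In the libraries labelled Ch25h-/- the means were 11.7 CPM in Tau+ and 15.7 CPM in Tau- (exact permutation p = 0.629). That Tau- mean rests on replicate 2, with 35 nuclei and 2 Hsd3b7 UMIs (32.5 CPM). Replicates 1, 3 and 4 had 8.56, 10.8 and 10.8 CPM. The Tau+ libraries labelled Ch25h-/- had 18.4, 12.3, 15.98 and 0 CPM, so the order of these means gives no direction. In oligodendrocyte precursors the level of Hsd3b7 was 7.30 CPM in the libraries labelled Ch25h-/- Tau- and 4.24 CPM in Ch25h+/+ Tau-. These came from 20 and 12 UMIs (exact permutation p = 0.0286). In Tau+ the levels were 5.62 and 6.35 CPM in the same order (exact permutation p = 0.686). In each class the first of these tests is among the 15 of 140 such tests with a p under 0.05.

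Of the 31 microglial nuclei with a Ch25h UMI, 14 also had a Gpr183 UMI. The share of other microglial nuclei with a Gpr183 UMI is not given here, so this count shows no link between the genes. A microglial cluster of 5781 nuclei held 2355 Gpr183 UMIs. The median depth of the 31 nuclei was 1935 UMIs, against 1644 in the other microglial nuclei of Tau+ libraries and 1219 in those of Tau- libraries.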
